A study of Mus musculus with 32 samples.

Results

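The genes described here are 33 genes of the unfolded protein response (UPR), measured by RNA-sequencing in sorted islet cells. They were taken by symbol from a fixed list, and all 33 were found, each once, among the 22850 genes of the deposited table. The cells came from βVEGF-A; MIP-GFP mice, whose transgenes are given as MIP-GFP; RIP-rtTA; TetO-VEGF-A and are carried by every group, controls included. In these mice the rat *Ins2* promoter drives the doxycycline (Dox)-responsive activator rtTA, so that Dox induces a human VEGF-A transgene there, and the mouse *Ins1* promoter drives GFP. No Dox mice received no Dox, 1wk Dox mice had Dox at 5 mg/ml in their drinking water for 1 week, and 1wk WD mice were studied 1 week after its withdrawal (WD). The mice were 8 to 16 weeks old, and the islets of several mice were pooled for a sample. β cells were sorted as GFP+ cells without CD31 and CD11b, endothelial cells (ECs) as CD31+ cells, and macrophages (MΦs) as CD11b+ cells. The CD11b gate does not by itself set MΦs apart from other myeloid cells. In that order of time points there were n = 4, 5, and 3 β cell samples, n = 4, 1, and 5 EC samples, and n = 4, 2, and 4 MΦ samples. The study describes the samples as biological replicates, and which mice went into which sample is not given in the sources used here. The study uses the model to follow β cells through loss and recovery, and the comparisons ask how UPR genes stood in each cell type and at each time point.

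The UPR is the response of the endoplasmic reticulum (ER) to unfolded proteins. Sensors in the ER membrane, IRE1α, PERK, and ATF6, signal to the nucleus, where the factors XBP1, ATF4, and cleaved ATF6 raise genes for chaperones, disulfide bond formation, and ER-associated degradation (ERAD), while the PERK branch lowers translation. β cells, which make and fold large amounts of proinsulin, depend on this system, and its terminal outputs such as CHOP are linked to β cell death. The 33 genes were grouped by these roles into 7 sensors and factors, 11 chaperones and cofactors, 5 disulfide enzymes, 7 ERAD genes, and 3 stress outputs.

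A known promoter element recurs in these genes and is shown first. RefSeq windows of 300 bases, from 250 before to 50 after the gene start on GRCm38.p6, matched 29 of the 33 genes by symbol and gave 30 windows, since *Derl2* has 2 of them, with *Ero1l* and *Ero1lb* listed as *Ero1a* and *Ero1b*. *Atf6*, *Hyou1*, *Manf*, and *Derl1* were not matched. The ER stress element ERSE, written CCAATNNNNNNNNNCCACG and searched on both strands, is the classical site of NF-Y together with ATF6 or XBP1. It occurred in 10 of the 30 windows (33.3%), each of another gene, and in 39 of all 32851 RefSeq windows of this length (0.119%). *Hsp90b1* held it in 2 places. Gene list and element were both chosen for their part in the UPR, so the contrast of these shares is not an independent result. The matches are given as read on the strand of the motif, with the fixed bases in capitals.
Hspa5: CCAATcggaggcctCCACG
Hsp90b1, first match: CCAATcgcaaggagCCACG
Hsp90b1, other match: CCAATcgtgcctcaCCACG
Calr: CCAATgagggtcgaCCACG
Canx: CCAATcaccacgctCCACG
Dnajc3: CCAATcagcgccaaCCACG
Creld2: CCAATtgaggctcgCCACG
Pdia6: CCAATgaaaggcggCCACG
Ero1lb: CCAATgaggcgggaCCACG
Syvn1: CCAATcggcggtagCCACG
Derl3: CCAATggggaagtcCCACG

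Outside the fixed bases these matches differed from one another, and the element stood in chaperone, disulfide, and ERAD genes alike. The related ERSE-II, which is ATTGG and CCACG with 1 base of any kind between them, occurred in 2 of the 30 windows against 0.0365% of all windows. The match was ATTGGcCCACG in *Dnajb11* and ATTGGgCCACG in *Herpud1*. The C/EBP-ATF response element CARE, TGATGNAA, to which ATF4 binds with C/EBP factors, occurred in 3 windows against 3.97% of all, with TGATGcAA in *Herpud1*, TGATGtAA in *Trib3*, and TGATGaAA in *Asns*. The element TGACGTGG, named UPRE, was in 0 of the 30 windows and in 0.676% of all. All motifs were searched on both strands, and no matches overlapped, although ERSE and ERSE-II share the letters CCACG and UPRE holds their complement. A match of letters is a description and not a shown binding site.

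The whole windows of 4 genes named in the results below are given. *Hspa5*, *Calr*, and *Derl3* hold the ERSE (capitals mark its fixed bases, in *Calr* and *Derl3* on the opposite strand), and *Sdf2l1*, the one gene called over time with all samples, holds none of the 4 motifs.
Hspa5, chr2:34771840-34772139, + strand: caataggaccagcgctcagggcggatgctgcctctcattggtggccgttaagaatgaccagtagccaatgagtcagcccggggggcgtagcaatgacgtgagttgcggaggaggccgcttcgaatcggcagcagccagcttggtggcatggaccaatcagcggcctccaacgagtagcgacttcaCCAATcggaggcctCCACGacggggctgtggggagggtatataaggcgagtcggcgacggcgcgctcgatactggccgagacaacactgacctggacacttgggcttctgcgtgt
Calr, chr8:84846882-84847181, - strand: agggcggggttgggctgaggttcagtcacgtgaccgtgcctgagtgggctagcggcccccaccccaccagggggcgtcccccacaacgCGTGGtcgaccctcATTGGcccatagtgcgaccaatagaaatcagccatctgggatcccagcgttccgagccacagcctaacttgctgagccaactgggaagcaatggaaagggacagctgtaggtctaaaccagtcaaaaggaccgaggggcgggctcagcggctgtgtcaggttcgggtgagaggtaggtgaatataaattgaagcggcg
Derl3, chr10:75893148-75893447, + strand: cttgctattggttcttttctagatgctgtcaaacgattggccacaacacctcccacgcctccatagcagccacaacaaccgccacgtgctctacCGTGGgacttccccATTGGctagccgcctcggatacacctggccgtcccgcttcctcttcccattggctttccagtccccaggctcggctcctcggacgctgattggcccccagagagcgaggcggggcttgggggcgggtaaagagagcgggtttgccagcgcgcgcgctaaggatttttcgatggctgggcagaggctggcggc
Sdf2l1, chr16:17132334-17132633, - strand: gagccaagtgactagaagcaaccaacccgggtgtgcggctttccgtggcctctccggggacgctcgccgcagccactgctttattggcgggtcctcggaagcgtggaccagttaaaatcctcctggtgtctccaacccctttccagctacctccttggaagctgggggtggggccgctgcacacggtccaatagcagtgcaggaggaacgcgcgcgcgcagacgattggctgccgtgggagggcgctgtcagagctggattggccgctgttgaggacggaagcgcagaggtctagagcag

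Expression is given as a score, which the authors obtained by TMM normalization and which the table holds as a whole number of at least 1. Reads cannot be counted back from scores, so sequencing depth and the precision of a low score are unknown. Over its genes a sample's scores added up to between 23465985 and 53441769. Marker genes followed the sort. The 9 EC markers took 1.32 to 1.90% of the summed score in ECs and at most 0.21% in other cells, the 10 MΦ markers took 0.656 to 1.65% in MΦs and at most 0.0269% elsewhere, and the 10 β cell markers took 1.48 to 28.0% in β cells and at most 0.0894% elsewhere. The β cell share thus differed widely between β cell samples. The 10 acinar markers, digestive enzymes of the exocrine pancreas, were all above the lowest score in 8 of the 9 groups. They summed to more than 1000000 in 5 No Dox samples: 26.0 and 22.0% of the score in β cell replicates 3 and 4, 22.0 and 5.45% in MΦ replicates 2 and 4, and 5.05% in EC replicate 2. In the other 27 samples their share was at most 2.17%. These 5 are called acinar-high samples, and results that rest on them are also given without them, a choice made after the marker sums were seen. All 33 UPR genes passed the filter on low scores in every fit. In bulk samples such as these, fewer cells of a type and less RNA per cell cannot be told apart.

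Before any Dox, most UPR genes were higher in β cells than in either neighbour. Against ECs, 23 of the 33 genes were called higher, which means at least 2-fold with an adjusted p under 0.05 by limma on log2(score + 1), and 0 were called lower, where 21.2% of all 16380 genes tested were called higher and 16.5% lower. The median log2 fold change of the 33 was 1.48, against 0.07 over all genes. Against MΦs, 17 were called higher and 1 lower, where 23.5% of all genes were called higher and 19.7% lower, and the median was 1.07 against 0.12. ECs stood below MΦs for 27 of the 33 genes, of which 9 were called lower and 1 was called higher, where 17.6% of all genes were called lower and 15.9% higher. The β cell to EC calls came from most roles: 5 of 7 sensors and factors, 10 of 11 chaperones, 3 of 5 disulfide enzymes, 5 of 7 ERAD genes, and 0 of 3 stress outputs were called higher. The plot of No Dox scores shows each sample.

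**Figure D1:**
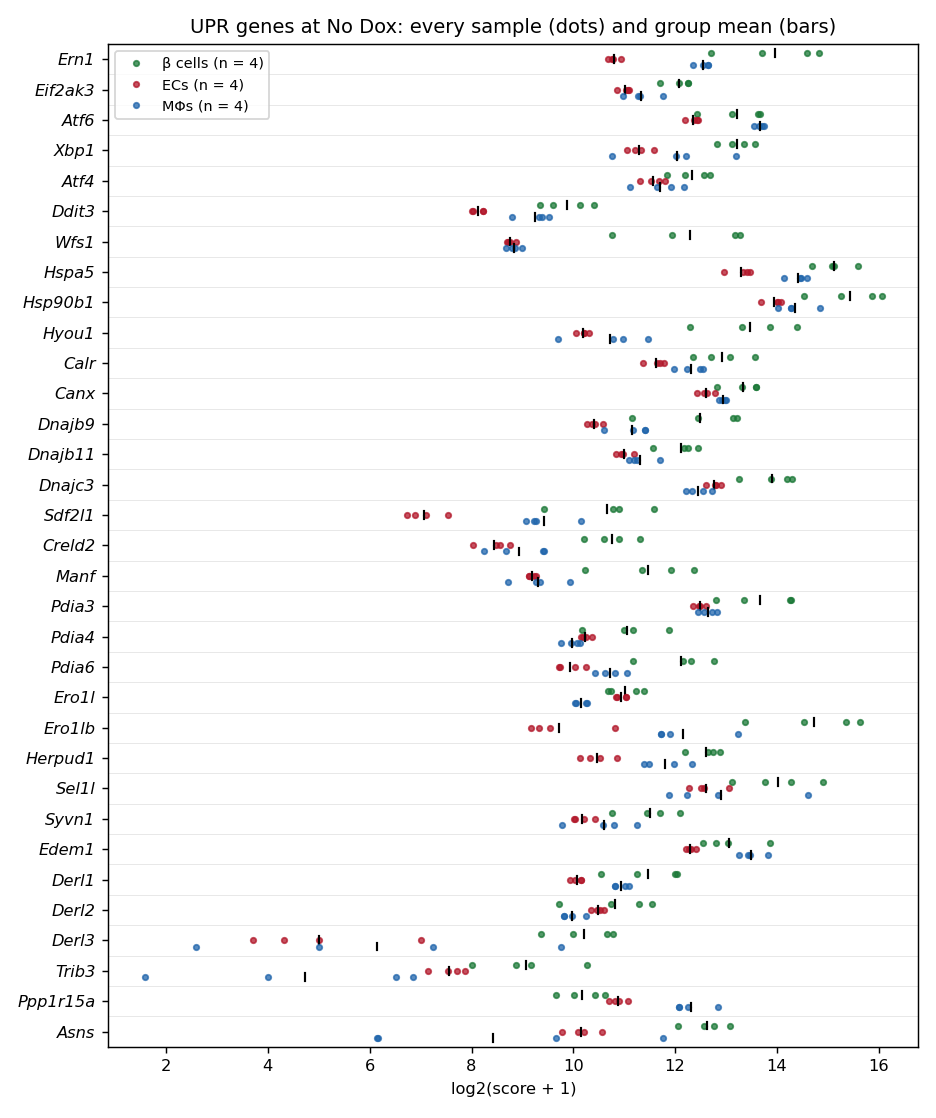
Scores of the 33 UPR genes (rows, grouped by role) at No Dox as log2(score + 1) on the horizontal axis. Dots are samples (β cells, ECs, and MΦs, n = 4 each) and short black bars are group means. The β cell mean was above the EC mean for 32 of the 33 genes, all but *Ppp1r15a*, and dots of MΦs lie wide apart for *Derl3*, *Trib3*, and *Asns*.

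Among the sensors, *Ern1*, which encodes IRE1α, scored 29184, 24651, 13329 and 6635 in the β cell samples, 1761, 1732, 1648 and 1954 in the EC samples, and 5970, 6453, 6430 and 5235 in the MΦ samples. β cells did not overlap the other cells, and the differences were 3.16 ± 0.36 (SE, adjusted p = 2.62e-05) from ECs and 1.40 ± 0.36 (SE, adjusted p = 0.0064) from MΦs, on the log2 scale used for all differences here. ECs were also below MΦs, at -1.76 ± 0.36 (SE, adjusted p = 0.00185). *Eif2ak3*, which encodes PERK, scored 4896, 4289, 4875 and 3346 in the β cell samples, 2141, 2171, 1845 and 2100 in the EC samples, and 2525, 3494, 2005 and 2465 in the MΦ samples. It was called higher in β cells than in ECs, by 1.06 ± 0.18 (SE, adjusted p = 0.00043), and the lowest β cell sample lay below the highest MΦ sample. *Atf6* ran another way. It scored 12630, 12968, 8857 and 5505 in the β cell samples, 4676, 5505, 5286 and 5593 in the EC samples, and 13290, 12853, 12040 and 13721 in the MΦ samples, so that the 4 MΦ samples lay above the 4 EC samples and within or above the β cell range. It was called lower in ECs than in MΦs, at -1.30 ± 0.23 (SE, adjusted p = 0.000623), and β cells differed from MΦs by -0.46 ± 0.23 (SE, adjusted p = 0.115). *Wfs1* encodes wolframin, an ER membrane protein whose loss causes Wolfram syndrome with diabetes. Its scores were 9937, 9318, 3909 and 1728 in the β cell samples, 413, 465, 420 and 433 in the EC samples, and 462, 446, 408 and 511 in the MΦ samples, and β cells exceeded ECs by 3.53 ± 0.45 (SE, adjusted p = 5.17e-05) and MΦs by 3.45 ± 0.45 (SE, adjusted p = 5.18e-05). ECs minus MΦs was -0.07 ± 0.45 (SE, adjusted p = 0.918). The β cell samples themselves spread more than 5-fold, from 1728 to 9937.

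*Xbp1*, whose mRNA IRE1α splices, scored 12118, 8835, 10442 and 7282 in the β cell samples, 2114, 3053, 2585 and 2376 in the EC samples, and 4123, 9361, 1729 and 4737 in the MΦ samples. β cells did not overlap ECs, from which they differed by 1.92 ± 0.39 (SE, adjusted p = 0.00175), but overlapped MΦs through the acinar-high MΦ replicate 2, with a difference of 1.17 ± 0.39 (SE, adjusted p = 0.025). *Atf4*, the factor translated when PERK is active, scored 6602, 6083, 4701 and 3683 in the β cell samples, 2537, 3273, 3546 and 2934 in the EC samples, and 2201, 3197, 3864 and 4628 in the MΦ samples and was called in no No Dox comparison of all samples. β cells were above ECs by 0.75 ± 0.24 (SE, adjusted p = 0.0229), short of 2-fold. Without the acinar-high samples it was called against ECs, at 1.09 ± 0.25 (SE, adjusted p = 0.00852), and against MΦs, at 1.12 ± 0.28 (SE, adjusted p = 0.0107). *Ddit3*, which encodes the pro-apoptotic factor CHOP, scored 1123, 1354, 646 and 779 in the β cell samples, 261, 257, 299 and 298 in the EC samples, and 445, 667, 731 and 641 in the MΦ samples. ECs lay below all other samples. β cells minus ECs was 1.75 ± 0.25 (SE, adjusted p = 0.000145), and ECs minus MΦs was -1.13 ± 0.25 (SE, adjusted p = 0.00306). The β cell and MΦ values overlapped.

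The chaperones were the group with the largest share of calls between β cells and ECs. *Hspa5* encodes BiP, the main ER chaperone and a brake on the sensors. It scored 49137, 34505, 35731 and 26430 in the β cell samples, 8006, 10905, 11321 and 10332 in the EC samples, and 18000, 22385, 22644 and 24585 in the MΦ samples, with no overlap between any pair of cell types. β cells exceeded ECs by 1.82 ± 0.20 (SE, adjusted p = 1.58e-05), ECs were below MΦs at -1.11 ± 0.20 (SE, adjusted p = 0.000603), and β cells were above MΦs by 0.71 ± 0.20 (SE, adjusted p = 0.00931), which is less than 2-fold. *Hsp90b1*, the ER form of HSP90, scored 59541, 68203, 39128 and 23716 in the β cell samples, 13185, 16349, 16661 and 17259 in the EC samples, and 16527, 19841, 29577 and 19878 in the MΦ samples. Its difference was 1.48 ± 0.30 (SE, adjusted p = 0.0017) from ECs and 1.07 ± 0.30 (SE, adjusted p = 0.0104) from MΦs. *Hyou1*, a large nucleotide exchange factor of BiP, scored 21482, 14848, 10132 and 5039 in the β cell samples, 1178, 1176, 1274 and 1065 in the EC samples, and 2017, 2834, 826 and 1757 in the MΦ samples, and β cells did not overlap the other cells. It showed one of the larger differences, 3.27 ± 0.43 (SE, adjusted p = 6.98e-05) from ECs and 2.73 ± 0.43 (SE, adjusted p = 0.000226) from MΦs.

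*Calr* and *Canx*, the lectin chaperones calreticulin and calnexin, differed less. *Calr* scored 12131, 8640, 6712 and 5249 in the β cell samples, 2658, 3216, 3527 and 3324 in the EC samples, and 4847, 5957, 4038 and 5785 in the MΦ samples and was called against ECs, by 1.30 ± 0.23 (SE, adjusted p = 0.000692). *Canx* scored 12380, 12340, 10169 and 7295 in the β cell samples, 5482, 6038, 7073 and 6304 in the EC samples, and 7462, 8048, 8215 and 7808 in the MΦ samples, with 0.74 ± 0.17 (SE, adjusted p = 0.00324) against ECs, under 2-fold. Of the J-domain cofactors of BiP, *Dnajb9* scored 9070, 9546, 5571 and 2289 in the β cell samples, 1230, 1314, 1367 and 1523 in the EC samples, and 1557, 2303, 2705 and 2717 in the MΦ samples and was called against both, by 2.09 ± 0.38 (SE, adjusted p = 0.000796) and 1.35 ± 0.38 (SE, adjusted p = 0.0105). *Dnajc3* scored 20175, 18813, 15070 and 9771 in the β cell samples, 6238, 7176, 7620 and 7009 in the EC samples, and 4723, 6798, 6012 and 5186 in the MΦ samples, did not overlap between β cells and the others, and was called against both, by 1.14 ± 0.21 (SE, adjusted p = 0.000925) and 1.45 ± 0.21 (SE, adjusted p = 0.000134). *Dnajb11* scored 5617, 4638, 4887 and 3026 in the β cell samples, 1841, 2022, 2347 and 1951 in the EC samples, and 2428, 3347, 2195 and 2339 in the MΦ samples and was called with all samples against ECs only, by 1.12 ± 0.20 (SE, adjusted p = 0.000599), with 0.80 ± 0.20 (SE, adjusted p = 0.00472) against MΦs.

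Of the other chaperone genes, *Sdf2l1*, which encodes a BiP cofactor, scored 3060, 1900, 1762 and 684 in the β cell samples, 106, 184, 117 and 136 in the EC samples, and 533, 1140, 599 and 618 in the MΦ samples. The cell types fell in the order β cells, MΦs, and ECs, with 3.61 ± 0.41 (SE, adjusted p = 2.58e-05) between β cells and ECs and -2.37 ± 0.41 (SE, adjusted p = 0.000572) between ECs and MΦs. β cells and MΦs overlapped through β cell replicate 4 and MΦ replicate 2, with a difference of 1.24 ± 0.41 (SE, adjusted p = 0.0241). *Creld2*, a stress-inducible ER protein, scored 2522, 1912, 1555 and 1176 in the β cell samples, 259, 375, 429 and 355 in the EC samples, and 303, 686, 410 and 680 in the MΦ samples, and β cells did not overlap the others. β cells exceeded ECs by 2.30 ± 0.31 (SE, adjusted p = 9.48e-05) and MΦs by 1.81 ± 0.31 (SE, adjusted p = 0.000466). *Manf*, a secreted ER stress protein that protects β cells, scored 5328, 3866, 2620 and 1197 in the β cell samples, 613, 561, 598 and 561 in the EC samples, and 422, 648, 977 and 613 in the MΦ samples. Here too β cells lay above every other sample, by 2.28 ± 0.39 (SE, adjusted p = 0.00053) and 2.15 ± 0.39 (SE, adjusted p = 0.000662).

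Of the disulfide enzymes, the 2 ERO1 oxidases, which reoxidize the protein disulfide isomerases, gave unlike values. *Ero1l*, called in no comparison of all samples, scored 2410, 2693, 1647 and 1702 in the β cell samples, 1820, 1860, 2089 and 2084 in the EC samples, and 1234, 1051, 1222 and 1065 in the MΦ samples. β cells and ECs overlapped, with a difference of 0.08 ± 0.17 (SE, adjusted p = 0.733), and β cells stood above MΦs by 0.86 ± 0.17 (SE, adjusted p = 0.00113), less than 2-fold. Without the acinar-high samples the latter was called, at 1.05 ± 0.15 (SE, adjusted p = 0.00083). *Ero1lb*, the pancreas-enriched paralog, scored 50668, 41717, 23841 and 10562 in the β cell samples, 749, 1798, 638 and 574 in the EC samples, and 3370, 9693, 3381 and 3842 in the MΦ samples. β cells lay above all other samples, by 5.01 ± 0.53 (SE, adjusted p = 1.4e-05) over ECs and 2.57 ± 0.53 (SE, adjusted p = 0.00154) over MΦs, and ECs were below MΦs at -2.44 ± 0.53 (SE, adjusted p = 0.00264). The highest EC and the highest MΦ sample were acinar-high samples. How reads of the 2 paralogs were assigned is not given in the sources used here. The isomerase *Pdia6* scored 6991, 5116, 4590 and 2320 in the β cell samples, 854, 1052, 1214 and 846 in the EC samples, and 1566, 2137, 1370 and 1799 in the MΦ samples and was called against both, by 2.17 ± 0.29 (SE, adjusted p = 7.92e-05) and 1.38 ± 0.29 (SE, adjusted p = 0.00172). *Pdia3*, with 19654, 19840, 10536 and 7112 in the β cell samples, 5238, 5667, 6272 and 5720 in the EC samples, and 6088, 5583, 7246 and 6748 in the MΦ samples, was also called against both, by 1.19 ± 0.28 (SE, adjusted p = 0.00437) and 1.03 ± 0.28 (SE, adjusted p = 0.00874). *Pdia4*, with 3744, 2322, 2042 and 1146 in the β cell samples, 1138, 1209, 1320 and 1171 in the EC samples, and 996, 1069, 862 and 1127 in the MΦ samples, was called with all samples against MΦs only, by 1.07 ± 0.28 (SE, adjusted p = 0.00651).

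The ERAD genes were less uniform. *Derl3*, the derlin most tied to secretory cells, had low scores outside β cells and the largest β cell to EC difference of the 33 with all samples. Without the acinar-high samples the difference was 5.99, below the 6.14 of *Ero1lb*. It scored 1630, 1021, 1765 and 654 in the β cell samples, 19, 127, 12 and 31 in the EC samples, and 31, 860, 5 and 150 in the MΦ samples, and the differences were 5.20 ± 1.26 (SE, adjusted p = 0.00505) from ECs and 4.06 ± 1.26 (SE, adjusted p = 0.0171) from MΦs. The EC and MΦ samples at 127, 150, and 860 were the acinar-high ones. Without the acinar-high samples the difference from MΦs was 6.54. *Derl1* scored 4229, 4101, 2441 and 1483 in the β cell samples, 1139, 978, 1142 and 1049 in the EC samples, and 1798, 2184, 1795 and 2057 in the MΦ samples and was called against ECs, by 1.39 ± 0.28 (SE, adjusted p = 0.00156), while *Derl2*, with 2997, 2488, 1707 and 840 in the β cell samples, 1413, 1564, 1467 and 1294 in the EC samples, and 907, 905, 1209 and 1005 in the MΦ samples, was called in no No Dox comparison of all samples. Without the acinar-high samples *Derl2* was called against MΦs, at 1.38 ± 0.20 (SE, adjusted p = 0.000754). *Herpud1*, a stabilizer of the HRD1 ligase complex, scored 6415, 4656, 7515 and 6830 in the β cell samples, 1123, 1867, 1470 and 1288 in the EC samples, and 2871, 5128, 2671 and 4023 in the MΦ samples. It was called in β cells over ECs, by 2.15 ± 0.24 (SE, adjusted p = 1.92e-05), and in ECs below MΦs, at -1.33 ± 0.24 (SE, adjusted p = 0.000659).

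*Syvn1*, the HRD1 ubiquitin ligase, scored 4350, 3352, 2803 and 1732 in the β cell samples, 1043, 1383, 1033 and 1179 in the EC samples, and 1533, 2423, 871 and 1770 in the MΦ samples, and was called against ECs, by 1.33 ± 0.32 (SE, adjusted p = 0.00483). Its partner *Sel1l* scored 13932, 8873, 30532 and 19784 in the β cell samples, 4960, 8568, 5852 and 6046 in the EC samples, and 4839, 24946, 3770 and 7331 in the MΦ samples. In all 3 cell types its highest samples were acinar-high ones. The call against ECs, 1.41 ± 0.53 (SE, adjusted p = 0.0461), was lost in 13 of 20 alternatives, among them leaving out the acinar-high samples. Without those samples the difference was 0.99, just under 2-fold. *Edem1*, which directs misfolded glycoproteins to degradation, scored 7176, 5986, 14820 and 8372 in the β cell samples, 5051, 5463, 4915 and 4731 in the EC samples, and 9791, 14565, 11321 and 10989 in the MΦ samples and was called only as lower in ECs than in MΦs, at -1.20 ± 0.24 (SE, adjusted p = 0.00147), with β cells minus MΦs at -0.43 ± 0.24 (SE, adjusted p = 0.145).

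The stress outputs split. *Trib3*, a pseudokinase induced by ATF4 and CHOP, scored 1228, 573, 468 and 256 in the β cell samples, 209, 185, 232 and 140 in the EC samples, and 90, 115, 2 and 15 in the MΦ samples. It was called in β cells over MΦs, by 4.34 ± 0.98 (SE, adjusted p = 0.0028), and in ECs over MΦs, by 2.83 ± 0.98 (SE, adjusted p = 0.0355). The latter call was lost in 8 of 20 alternatives. β cells lay above all EC samples for *Trib3* too, by 1.51, without a call. *Asns*, the asparagine synthetase gene and an ATF4 target, scored 8657, 6069, 6977 and 4261 in the β cell samples, 1090, 1515, 1177 and 879 in the EC samples, and 70, 3456, 71 and 803 in the MΦ samples. MΦs were near 70 except in the acinar-high replicates 2 and 4. With all samples β cells were above MΦs by 4.19 ± 1.02 (SE, adjusted p = 0.00429), and without the acinar-high samples by 6.66. Against ECs β cells did not overlap either, but with the spread of all samples the difference of 2.46 ± 1.02 (SE, adjusted p = 0.0643) was not called. ECs minus MΦs was 1.73 ± 1.02 (SE, adjusted p = 0.199). *Ppp1r15a* encodes GADD34, which lets translation resume. It ran against the rest, with scores of 1377, 803, 1037 and 1569 in the β cell samples, 1905, 1805, 2169 and 1666 in the EC samples, and 4319, 4850, 4337 and 7373 in the MΦ samples, and was called lower in β cells than in MΦs, at -2.13 ± 0.23 (SE, adjusted p = 1.35e-05), and lower in ECs than in MΦs, at -1.44 ± 0.23 (SE, adjusted p = 0.000284).

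Across the alternatives in processing, 20 of the 23 β cell to EC calls, 12 of the 18 β cell to MΦ calls, and 8 of the 10 EC to MΦ calls held in all 20 alternatives. The calls lost in one or more were *Sel1l*, *Eif2ak3*, and *Pdia3* against ECs, *Derl3*, *Hsp90b1*, *Pdia3*, *Pdia4*, *Sdf2l1*, and *Xbp1* against MΦs, and *Ddit3* and *Trib3* between ECs and MΦs. *Eif2ak3* lost its call without β cell replicate 1, and *Pdia3* without β cell replicate 1 or 2. Without the acinar-high samples, which leaves 2 β cell, 3 EC, and 2 MΦ samples, 26 genes were called higher and 0 lower in β cells than in ECs, and 28 higher and 1 lower than in MΦs. The calls gained were *Atf6*, *Atf4*, *Pdia4*, and *Asns* against ECs, and *Eif2ak3*, *Atf4*, *Ddit3*, *Hspa5*, *Calr*, *Dnajb11*, *Ero1l*, *Sel1l*, *Syvn1*, *Derl1*, and *Derl2* against MΦs, all higher in β cells. All genes then gave 23% higher and 22.4% lower against ECs, and 26.5% higher and 24% lower against MΦs. Between ECs and MΦs 1 gene, *Asns*, was then called higher and 8 were called lower, where 19.1% of all genes were called higher and 18.9% lower.

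Genes of the same pathways outside the 33 leaned the same way. Of 78 tested in 5 lists (folding, translocation into the ER, further ERAD, the integrated stress response, and further sensors), 35 were called higher and 2 lower in β cells than in ECs, against 21.2 and 16.5% of all genes, with a median of 0.94 against 0.07. Against MΦs 35 were called higher and 5 lower, against 23.5 and 19.7% of all genes, with a median of 0.95 against 0.12. Translocation genes were the most one-sided, with 11 of 15 called higher against ECs and 12 of 15 against MΦs. *Sec61b*, a subunit of the ER channel, scored 1756, 1656, 1025 and 602 in β cells against 143, 231, 283 and 263 in ECs. *P4hb*, the founding protein disulfide isomerase, was higher in β cells by 1.92 ± 0.36 (SE, adjusted p = 0.000931) and 1.91 ± 0.36 (SE, adjusted p = 0.000823), whereas *Ppib*, a cyclophilin of the ER, differed by -0.29 ± 0.63 (SE, adjusted p = 0.725) from ECs. *Atf3*, a stress-induced factor that scored 124339, 101964, 146608 and 123077 in MΦs and 15078, 4575, 10145 and 12207 in β cells, was called lower in β cells, at -3.68 ± 0.30 (SE, adjusted p = 1.92e-06). The cargo genes *Ins1* and *Ins2* exceeded ECs by 11.34 ± 1.12 and 11.71 ± 0.99 (SE).

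Members with and without the ERSE can be set side by side at No Dox. Of the 10 genes with it, 9 were called higher in β cells than in ECs (median 1.65) and 6 than in MΦs (median 1.23). Among the 19 with a window but no match, 11 and 9 were called higher (medians 1.41 and 1.03). Of all genes 21.2% were called higher against ECs and 23.5% against MΦs. These are counts over genes chosen as UPR genes, with no test of the difference.

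In β cells, 0 of the 33 UPR genes were called at any time point. At 1wk Dox 2 of all 16346 genes tested (0.0122%) were called, and 5 of the 33 were under an unadjusted p of 0.05, against 6.99% of all genes. At 1wk WD 0% of all genes were called, and 2 of the 33 were under that p, against 8.17%. From 1wk Dox to 1wk WD 0% of all genes were called, and 0 of the 33 were under that p, against 6.31%. At 1wk Dox 24 of the 33 had a lower mean than at No Dox, with a median of -0.17 against 0.03 over all genes, and at 1wk WD 26 did, with a median of -0.30 against 0.06. The groups did not overlap for 2 of the 33 at 1wk Dox, *Ddit3* above and *Derl3* below No Dox, where 2.55% of all genes did not overlap.

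The β cell values behind these differences varied by sample. *Hspa5* scored 49137, 34505, 35731 and 26430 (No Dox), 23910, 47704, 29758, 29118 and 39589 (1wk Dox), and 16486, 26380 and 40697 (1wk WD). The 3 groups overlapped, and 1wk Dox differed from No Dox by -0.11 ± 0.32 (SE, adjusted p = 0.966) and 1wk WD by -0.45 ± 0.37 (SE, adjusted p = 0.707). *Ddit3* scored 1123, 1354, 646 and 779 (No Dox), 1428, 1522, 1553, 1504 and 1767 (1wk Dox), and 705, 880 and 2040 (1wk WD). All 5 samples at 1wk Dox lay above the 4 at No Dox, a difference of 0.73 ± 0.31 (SE, adjusted p = 0.687), and the 1wk WD samples ran from inside the No Dox range to the highest β cell score. *Trib3*, downstream of CHOP, scored 1228, 573, 468 and 256 (No Dox), 589, 1087, 1168, 537 and 1827 (1wk Dox), and 572, 879 and 1754 (1wk WD). With all samples it had the largest positive differences, 0.80 ± 0.50 (SE, adjusted p = 0.772) and 0.83 ± 0.57 (SE, adjusted p = 0.666), with overlapping groups. *Ppp1r15a*, after *Trib3* and *Ddit3* in size, differed at 1wk Dox by 0.37 ± 0.27 (SE, adjusted p = 0.815), and it scored 1377, 803, 1037 and 1569 (No Dox), 1613, 1433, 1722, 1147 and 1635 (1wk Dox), and 957, 1148 and 2164 (1wk WD).

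The largest negative differences in β cells were in ERAD genes and *Asns*. *Derl3* scored 1630, 1021, 1765 and 654 (No Dox), 217, 584, 326, 138 and 380 (1wk Dox), and 136, 463 and 1816 (1wk WD), and differed by -2.00 ± 0.66 (SE, adjusted p = 0.572) at 1wk Dox and -1.27 ± 0.76 (SE, adjusted p = 0.631) at 1wk WD. *Sel1l* scored 13932, 8873, 30532 and 19784 (No Dox), 5696, 9272, 7959, 4708 and 9771 (1wk Dox), and 7372, 8093 and 12143 (1wk WD), with -1.20 ± 0.35 (SE, adjusted p = 0.462) for 1wk Dox. Its 2 highest scores were in the acinar-high No Dox replicates. *Herpud1* scored 6415, 4656, 7515 and 6830 (No Dox), 2319, 3200, 2843, 1590 and 4857 (1wk Dox), and 1946, 2846 and 4808 (1wk WD), with -1.18 ± 0.33 (SE, adjusted p = 0.424) and -1.07 ± 0.38 (SE, adjusted p = 0.58), and here as well the acinar-high replicates 3 and 4 were highest. *Asns* scored 8657, 6069, 6977 and 4261 (No Dox), 2392, 5246, 4857, 1344 and 6499 (1wk Dox), and 1314, 3280 and 5371 (1wk WD), with -1.14 ± 0.57 (SE, adjusted p = 0.614) at 1wk WD.

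The other factors and enzymes had no such order. *Xbp1* scored 12118, 8835, 10442 and 7282 (No Dox), 5205, 9323, 8267, 5261 and 10786 (1wk Dox), and 3997, 7117 and 18760 (1wk WD), and *Atf4* scored 6602, 6083, 4701 and 3683 (No Dox), 4810, 5978, 4600, 4549 and 5159 (1wk Dox), and 2058, 3922 and 8050 (1wk WD). For both, the lowest and the highest of the 12 samples were at 1wk WD. *Ero1l* scored 2410, 2693, 1647 and 1702 (No Dox), 2008, 2489, 2045, 2049 and 2697 (1wk Dox), and 1412, 2208 and 2782 (1wk WD), and *Ero1lb* scored 50668, 41717, 23841 and 10562 (No Dox), 12911, 27376, 22129, 8456 and 24980 (1wk Dox), and 9825, 15060 and 39805 (1wk WD). From 1wk Dox to 1wk WD the largest differences were 0.73 ± 0.72 for *Derl3*, 0.38 ± 0.57 for *Hyou1*, and 0.32 ± 0.38 (SE) for *Sel1l* upwards, and -0.52 ± 0.33 for *Ddit3*, -0.34 ± 0.35 for *Hspa5*, and -0.32 ± 0.52 (SE) for *Dnajb9* downwards. *Hyou1* scored 21482, 14848, 10132 and 5039 (No Dox), 6350, 13327, 11215, 5120 and 13880 (1wk Dox), and 5925, 10253 and 28602 (1wk WD), and *Dnajb9* scored 9070, 9546, 5571 and 2289 (No Dox), 3488, 6476, 4824, 2660 and 5903 (1wk Dox), and 1941, 3290 and 7007 (1wk WD). In both the highest 1wk WD score lay above every 1wk Dox score. *Pdia4* was the second largest positive difference at 1wk WD against No Dox, with 0.26 ± 0.45 (SE, adjusted p = 0.874) and scores of 3744, 2322, 2042 and 1146 (No Dox), 1677, 2965, 2288, 1751 and 3371 (1wk Dox), and 1575, 2095 and 4953 (1wk WD).

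Within a group, UPR genes tended to be high or low in the same β cell samples. At 1wk WD, replicate 3 was the highest of 3 samples for 33 of the 33 genes and replicate 1 the lowest for 32, against 42.7 and 38.5% of all genes. At No Dox, replicate 1 was the highest of 4 for 22 of the 33 and replicate 4 the lowest for 27, against 25.3 and 34.7%. Replicates 1 and 2 both exceeded replicates 3 and 4 for 23 of the 33 genes (69.7%), against 33.5% of all genes. The reverse held for *Herpud1*, *Sel1l*, and *Edem1*, 3 genes, against 32.2% of all genes. At 1wk Dox, replicate 4 was the lowest of 5 for 19 genes, against 31.1% of all genes, and replicates 2 and 5 were highest for 15 and 14, against 14.7 and 25.8%. The β cell marker share moved with this order: 22.4, 16.3, 3.37, and 1.48% of the score in No Dox replicates 1 to 4, 5.32, 10.2, 5.76, 2.19, and 9.58% in 1wk Dox replicates 1 to 5, and 2.30, 6.57, and 28.0% in 1wk WD replicates 1 to 3. The 9 stroma markers, all above the lowest score, took 0.00262 and 0.00321% in No Dox replicates 1 and 2, 0.303 and 1.23% in replicates 3 and 4, between 0.359 and 1.87% in the 1wk Dox samples, and between 0.0659 and 1.32% in the 1wk WD samples. The column label of 1wk WD replicate 3 belongs to a number series apart from that of all other β cell samples. What the series stands for is not given in the sources used here. The part of the marker shares and of the series in the results was not tested. For β cells, ECs, and MΦs the median residual SD of the 33 genes on the log2 scale was 0.59, 0.22, and 0.28, against 0.58, 0.28, and 0.34 over all genes.

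**Figure D2:**
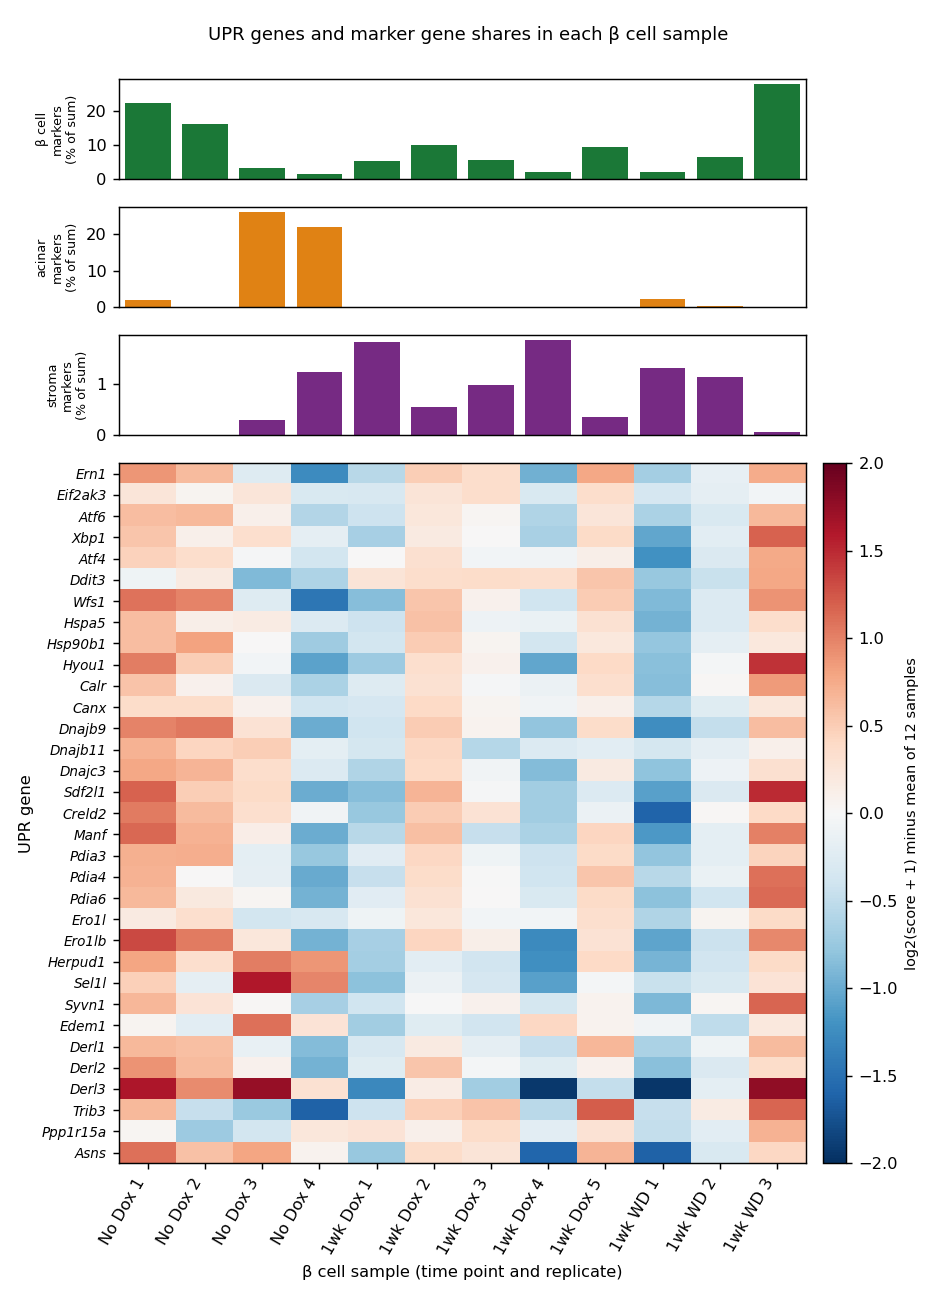
The 12 β cell samples in columns by time point and replicate. Bars give the share of the summed score taken by β cell, acinar, and stroma markers (in percent, from 0), and colours give log2(score + 1) of each of the 33 UPR genes minus its mean over the 12 samples, cut at 2 and -2. Samples 1wk WD 3 and No Dox 1, with β cell marker shares of 28.0 and 22.4%, are red for most genes, and No Dox 3 and 4 are red for *Sel1l* and *Herpud1*.

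Without the acinar-high replicates 3 and 4, β cells at No Dox are replicates 1 and 2 alone. Against these, 30 of the 33 genes had a lower mean at 1wk Dox, with a median of -0.70 against 0.00 over all genes, and 31 at 1wk WD, with a median of -0.66 against 0.02. In replicates 1 and 2 the β cell marker share was 22.4 and 16.3%, above the 2.19 to 10.2% of 1wk Dox samples. In 1wk WD samples this share was 2.30, 6.57, and 28.0%. Its part in the results was not tested. Of the 33, 0 were called at either time point, with 8 and 6 (24.2 and 18.2%) under an unadjusted p of 0.05 by limma, against 22.5 and 24.1% of all genes. Of all genes, 6.8% were then called higher and 0.552% lower at 1wk Dox, and 8.17% higher and 0.564% lower at 1wk WD. *Derl3* was lowest, at -2.13 ± 0.83 (SE, adjusted p = 0.156) at 1wk Dox, followed by *Ero1lb*, at -1.39 ± 0.56 (SE, adjusted p = 0.173). *Sel1l* was then -0.63 ± 0.34 (SE, adjusted p = 0.3), against -1.20 with all samples, and *Herpud1* -0.98 ± 0.42 (SE, adjusted p = 0.197).

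In MΦs, *Sdf2l1* was the one UPR gene called over time with all samples. It lies on chromosome 16 at 17130231 to 17132476 (mm9, - strand). Its scores were 533, 1140, 599 and 618 (No Dox), 1680 and 1441 (1wk Dox), and 708, 994, 817 and 983 (1wk WD). Both 1wk Dox samples lay above all others, and the gene rose by 1.17 ± 0.28 (SE, adjusted p = 0.0362) at 1wk Dox. So 1 of the 33 was called higher and 0 lower, where 1.61% of all 15014 genes tested were called higher and 0.653% lower. The groups of 2 and 4 samples did not overlap for 12 of the 33, where 30.9% of all genes did not. Beside these changes, the 10 MΦ markers took 0.656 to 1.08% of the summed score in No Dox samples of MΦs, 1.39 to 1.65% in 1wk Dox samples, and 1.25 to 1.53% in 1wk WD samples. The 5 neutrophil markers, all above the lowest score, took at most 0.00853% in any MΦ sample, and the 5 T cell markers 0.00253 to 0.00371, 0.00821 to 0.00905, and 0.00691 to 0.0128%. The 9 EC markers took 0.0105 to 0.0126% in the 1wk Dox samples of MΦs, above the 0.00429 to 0.00708% of No Dox and the 0.00606 to 0.00934% of 1wk WD. Of the 8 β cell cargo genes 8 had a higher mean in MΦs at 1wk Dox, with a median of 0.87, and 0 were called or under an unadjusted p of 0.05, where 21.3% of all genes were under that p. Their part in the result was not tested. The call rests on 2 samples at 1wk Dox and was lost in 11 of 18 alternatives, named further on. The column labels of both samples belong to a number series apart from that of all other MΦ samples. What the series stands for is not given in the sources used here. Time point and series cannot be told apart in comparisons of MΦs at 1wk Dox.

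With the fold change left aside, 5 of the 33 were under an adjusted p of 0.05 in MΦs at 1wk Dox, *Sdf2l1* included, where 4.58% of all genes were. Of 16 other folding genes 0 were, and 11 of these had a lower mean, with a median of -0.19. *Calr* scored 4847, 5957, 4038 and 5785 (No Dox), 11435 and 8576 (1wk Dox), and 6812, 8538, 7274 and 7668 (1wk WD). Both 1wk Dox samples and all 4 1wk WD samples lay above the 4 No Dox samples, with 0.96 ± 0.18 (SE, adjusted p = 0.0155) at 1wk Dox and 0.57 ± 0.15 (SE, adjusted p = 0.0833) at 1wk WD. *Pdia6* scored 1566, 2137, 1370 and 1799 (No Dox), 3225 and 2631 (1wk Dox), and 2133, 2112, 1766 and 1971 (1wk WD), with 0.78 ± 0.19 (SE, adjusted p = 0.036) at 1wk Dox, and its 1wk WD samples were back within the No Dox range. *Pdia4* scored 996, 1069, 862 and 1127 (No Dox), 1794 and 1522 (1wk Dox), and 1737, 1484, 1364 and 1487 (1wk WD). Again all samples with Dox or after it lay above No Dox, by 0.71 ± 0.17 (SE, adjusted p = 0.0386) and 0.58 ± 0.14 (SE, adjusted p = 0.0648). *Eif2ak3*, the PERK gene, went the other way. It scored 2525, 3494, 2005 and 2465 (No Dox), 1339 and 1595 (1wk Dox), and 1912, 1842, 1692 and 1942 (1wk WD), below No Dox in every later sample, at -0.81 ± 0.20 (SE, adjusted p = 0.0378) for 1wk Dox and -0.48 ± 0.16 (SE, adjusted p = 0.154) for 1wk WD.

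**Figure D3:**
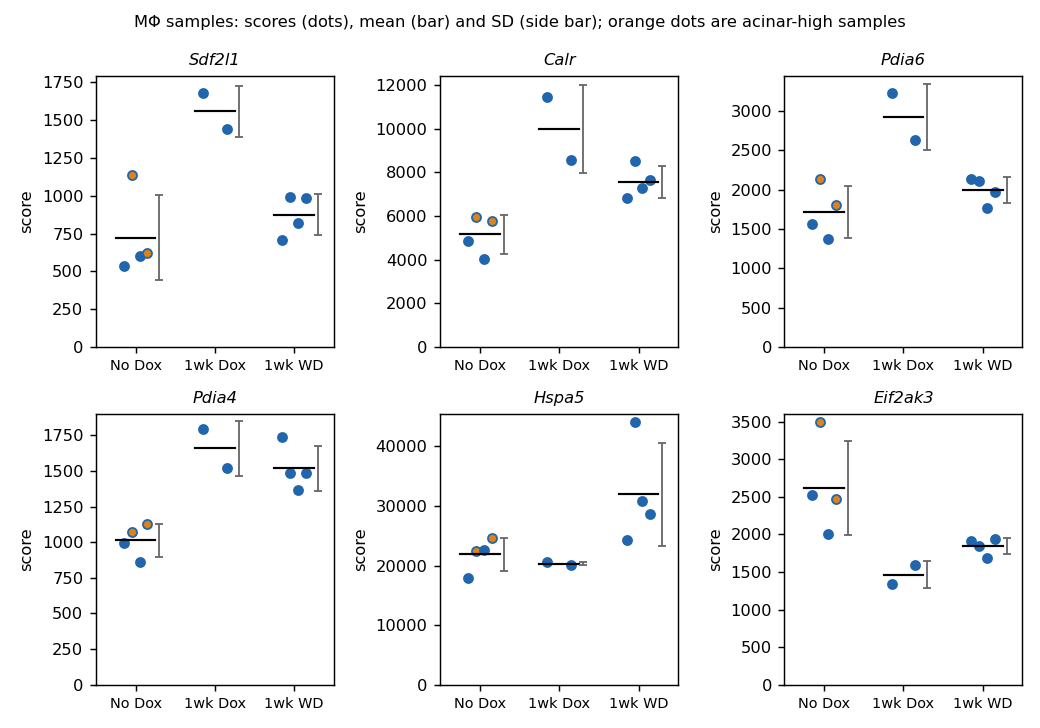
Scores of 6 UPR genes in MΦ samples at No Dox (n = 4), 1wk Dox (n = 2), and 1wk WD (n = 4), on axes from 0. Dots are samples, horizontal bars means, side bars SD, and orange dots the 2 acinar-high samples. For *Calr* and *Pdia4* all 6 later samples lie above the 4 No Dox samples, and for *Sdf2l1* the 2 at 1wk Dox lie above all others.

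*Hspa5* did not follow its cofactor *Sdf2l1*. It scored 18000, 22385, 22644 and 24585 (No Dox), 20535 and 20135 (1wk Dox), and 24228, 44167, 30797 and 28593 (1wk WD). Its 1wk Dox samples lay within the No Dox range, with a difference of -0.10 ± 0.21 (SE, adjusted p = 0.841), and 1wk WD differed by 0.52 ± 0.17 (SE, adjusted p = 0.154), with replicate 2 highest. *Dnajb9* scored 1557, 2303, 2705 and 2717 (No Dox), 2263 and 2272 (1wk Dox), and 2390, 5049, 3484 and 2588 (1wk WD), with 0.51 ± 0.23 (SE, adjusted p = 0.287) at 1wk WD. *Ddit3* scored 445, 667, 731 and 641 (No Dox), 1047 and 1013 (1wk Dox), and 918, 786, 1052 and 665 (1wk WD). Its 1wk Dox samples lay above No Dox, by 0.75 ± 0.24 (SE, adjusted p = 0.0978), and its 1wk WD samples overlapped it.

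Of the factors, *Xbp1* scored 4123, 9361, 1729 and 4737 (No Dox), 5557 and 5601 (1wk Dox), and 4555, 4647, 3910 and 4544 (1wk WD), with 0.40 ± 0.44 (SE, adjusted p = 0.647) at 1wk Dox. The No Dox samples ran over more than 5-fold, from replicate 3 to the acinar-high replicate 2, around later samples that lay close together. *Atf4* scored 2201, 3197, 3864 and 4628 (No Dox), 3932 and 3666 (1wk Dox), and 3267, 5333, 4013 and 3146 (1wk WD), with 0.18 ± 0.27 (SE, adjusted p = 0.753) at 1wk Dox. *Ero1l* was even in all 10 samples, with 1234, 1051, 1222 and 1065 (No Dox), 1191 and 1145 (1wk Dox), and 1057, 1137, 1097 and 1122 (1wk WD). *Ero1lb* scored 3370, 9693, 3381 and 3842 (No Dox), 2193 and 2383 (1wk Dox), and 2932, 2846, 3010 and 2843 (1wk WD), below No Dox in every later sample, but without a call, at -0.99 ± 0.33 (SE, adjusted p = 0.108) for 1wk Dox and -0.64 ± 0.27 (SE, adjusted p = 0.251) for 1wk WD.

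*Asns* and *Derl3* carried large differences with large errors. *Asns* scored 70, 3456, 71 and 803 (No Dox), 44 and 50 (1wk Dox), and 30, 57, 39 and 31 (1wk WD), with -2.85 ± 1.24 (SE, adjusted p = 0.208) at 1wk Dox and -3.15 ± 1.01 (SE, adjusted p = 0.136) at 1wk WD. *Derl3* scored 31, 860, 5 and 150 (No Dox), 70 and 50 (1wk Dox), and 88, 33, 20 and 37 (1wk WD), with -0.84 ± 1.16 (SE, adjusted p = 0.742) at 1wk WD. For both genes, No Dox replicates 2 and 4, the acinar-high samples, were the highest of the 10. *Creld2* scored 303, 686, 410 and 680 (No Dox), 771 and 801 (1wk Dox), and 372, 644, 644 and 630 (1wk WD), with 0.68 ± 0.35 (SE, adjusted p = 0.289) at 1wk Dox, whose samples lay above No Dox.

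At 1wk WD, 0 of the 33 genes were called in MΦs against No Dox, where 0.626% of all genes were called. By limma 11 were under an unadjusted p of 0.05, against 17.3% of all genes. Of the 33, 22 had a higher mean, against 50.4% of all genes, and the median was 0.15 against 0.00. *Calr*, *Pdia4*, *Eif2ak3*, *Ero1lb*, *Edem1*, and *Asns*, 6 genes, did not overlap between the groups, where 9.24% of all genes did not. From 1wk Dox to 1wk WD 0 were called, where 0.0866% of all genes were, and 4 were under an unadjusted p of 0.05, against 9.7%. The most negative differences were -0.84 ± 0.28 (SE, adjusted p = 0.342) for *Sdf2l1*, -0.61 ± 1.43 (SE, adjusted p = 0.962) for *Derl3*, and -0.55 ± 0.19 (SE, adjusted p = 0.345) for *Pdia6*. The most positive were 0.62 ± 0.21 (SE, adjusted p = 0.361) for *Hspa5*, 0.51 ± 0.29 (SE, adjusted p = 0.618) for *Dnajb9*, and 0.35 ± 0.33 (SE, adjusted p = 0.838) for *Ero1lb*.

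**Figure D4:**
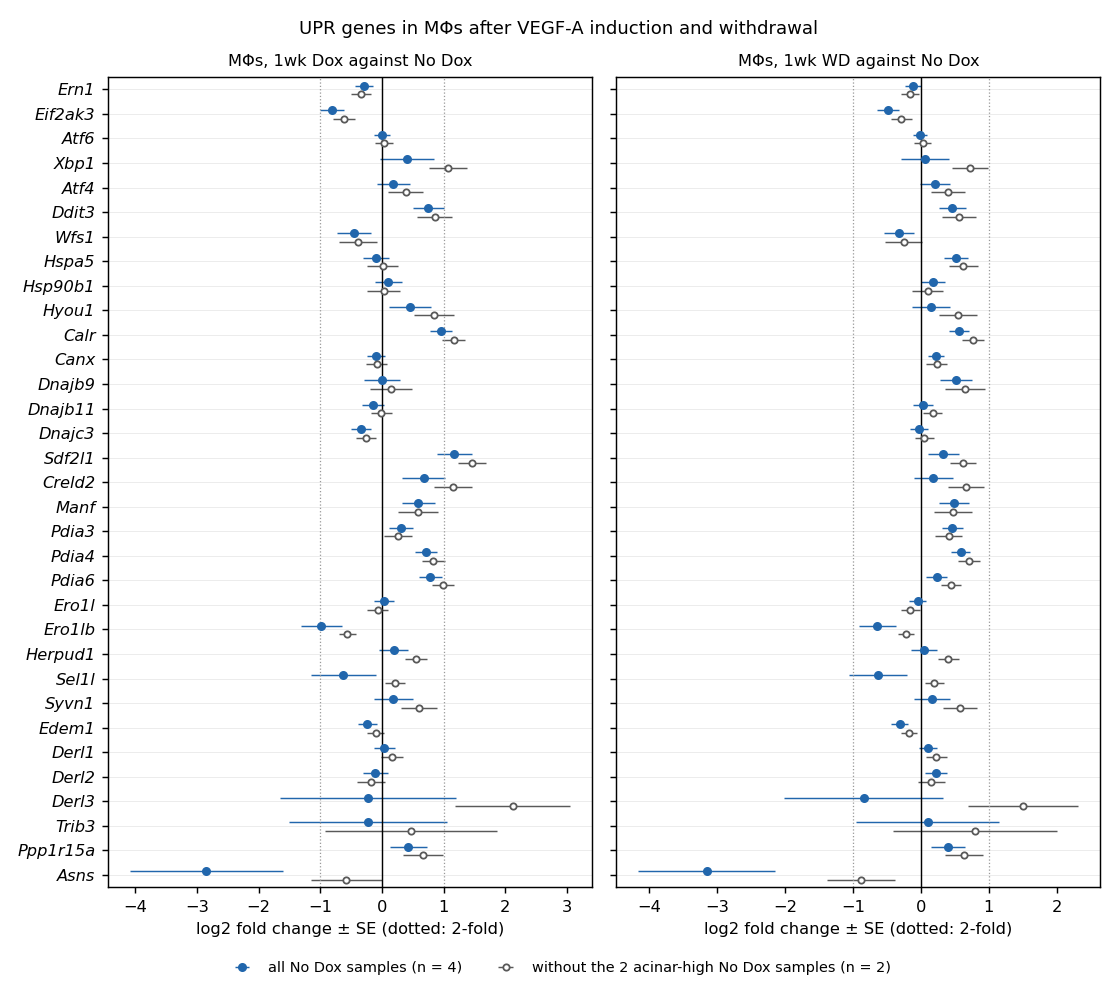
Log2 fold changes with SE of the 33 UPR genes in MΦs, 1wk Dox (left) and 1wk WD (right) against No Dox. Filled points use all 4 No Dox samples and open points the 2 without high acinar markers, and dotted lines mark 2-fold. *Sdf2l1*, *Calr*, *Pdia6*, and *Pdia4* lie to the right of 0 in both, and *Asns*, *Sel1l*, and *Derl3* shift most between the point types.

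Without the acinar-high No Dox samples, 4 genes were called higher in MΦs at 1wk Dox and 0 lower, where 4.79% of all genes were called higher and 1.63% lower. These were *Sdf2l1*, at 1.46 ± 0.22 (SE, adjusted p = 0.00593), *Calr*, at 1.16 ± 0.18 (SE, adjusted p = 0.00637), *Creld2*, at 1.15 ± 0.31 (SE, adjusted p = 0.0382), and *Xbp1*, at 1.06 ± 0.31 (SE, adjusted p = 0.0495). At 1wk WD 0 were called, where 2.34% of all genes were, and *Calr* was 0.77 ± 0.16 (SE, adjusted p = 0.0278) and *Pdia4* 0.71 ± 0.16 (SE, adjusted p = 0.0379). *Asns* was then -0.58 ± 0.58 (SE, adjusted p = 0.534) at 1wk Dox, and *Derl3* 2.12 ± 0.94 (SE, adjusted p = 0.157). The median of the 33 moved from 0.03 to 0.21 at 1wk Dox and from 0.15 to 0.40 at 1wk WD. With replicate 2 of No Dox alone left out, 2 genes were called, and the count fell to 0 without No Dox replicate 1, 1wk Dox replicate 4 or 5, or 1wk WD replicate 2, 3, or 4. Without No Dox replicate 4, *Calr* was called and *Sdf2l1* was not. *Sdf2l1* also lost its call without the filter on low scores, without the trend of the spread, with the replicate number as a block, and with only the 2 groups in the fit. Each 1wk Dox sample left alone in its group was taken to vary like the other groups.

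In MΦs at 1wk Dox 1.61% of all genes were called higher and 0.653% lower. Of 79 other genes of these pathways tested there, 1 was called higher and 0 lower. It was *Ssr4*, a subunit of the translocon-associated complex, which rose by 1.10 ± 0.29 (SE, adjusted p = 0.0487). *Slc7a11*, a cystine transporter induced by ATF4, passed the adjusted p without reaching 2-fold, with 0.97 ± 0.25 (SE, adjusted p = 0.0463). *Sec61b* differed by 0.78 ± 0.39 (SE, adjusted p = 0.273) and *P4hb* by -0.45 ± 0.40 (SE, adjusted p = 0.563). At 1wk WD 0 of the 79 were called, with 16 under an unadjusted p of 0.05, against 17.3% of all genes. In β cells 0 of the 79 were called at 1wk Dox, with 10 under an unadjusted p of 0.05, against 6.99%, and 62 had a lower mean, with a median of -0.26.

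Some UPR genes were highest where acinar markers were. In MΦs, No Dox replicate 2 was the highest of the 10 samples for 14 of the 33 genes, against 17.0% of all genes. In ECs, No Dox replicate 2 was the highest of 10 for 8 of the 33, against 4.12% of all genes. *Ero1lb*, *Herpud1*, *Sel1l*, *Derl3*, and *Asns* were the 5 genes for which both held, and the plot of acinar shares shows 4 of them. *Sel1l* scored 4839, 24946, 3770 and 7331 in MΦs at No Dox, beside acinar shares of 0.307, 22.0, 0.0794, and 5.45%. In ECs it scored 4960, 8568, 5852 and 6046, beside 0.314, 5.05, 0.272, and 0.198%. The part of acinar RNA in these scores was not tested.

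**Figure D5:**
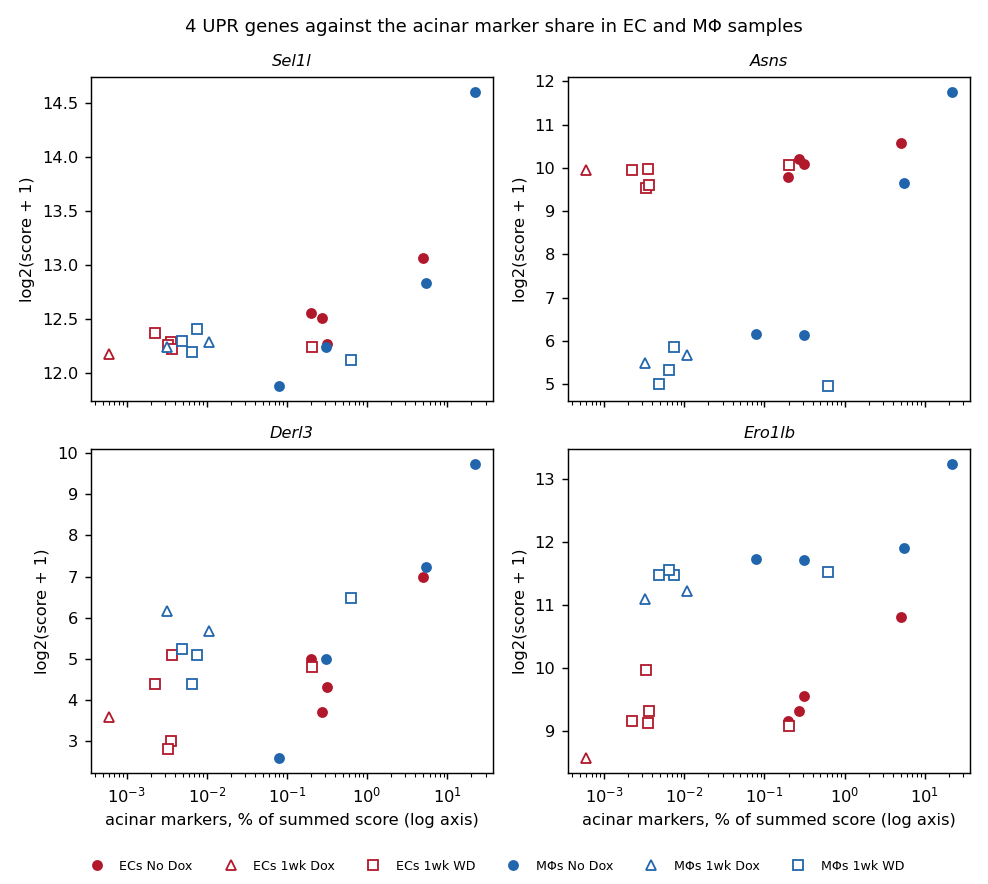
Log2(score + 1) of *Sel1l*, *Asns*, *Derl3*, and *Ero1lb* against the share of the summed score taken by 10 acinar markers (percent, log axis) in the 10 EC and 10 MΦ samples. Colours mark the cell type and symbols the time point. The samples at 22.0% (MΦs) and 5.05% (ECs) have the highest score of their cell type in each panel.

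In ECs at 1wk WD, 0 of the 33 genes were called against No Dox by limma, where 1.76% of all 14167 genes tested were. Under an unadjusted p of 0.05 were 6 of the 33 (18.2%), against 21.9% of all genes. The groups overlapped for all 33, where 10.7% of all genes did not overlap. Of the 33, 26 had a lower mean, with a median of -0.13 against 0.00 over all genes. *Hspa5* scored 8006, 10905, 11321 and 10332 (No Dox), 7239 (1wk Dox), and 8402, 12734, 9119, 7124 and 8798 (1wk WD), with -0.15 ± 0.16 (SE, adjusted p = 0.6), and *Xbp1* scored 2114, 3053, 2585 and 2376 (No Dox), 3139 (1wk Dox), and 2300, 2791, 1892, 1530 and 2189 (1wk WD), with -0.26 ± 0.17 (SE, adjusted p = 0.376). *Dnajb9* had the largest positive difference, 0.47 ± 0.15 (SE, adjusted p = 0.101), and scored 1230, 1314, 1367 and 1523 (No Dox), 1173 (1wk Dox), and 1334, 2126, 2050, 1822 and 2223 (1wk WD). *Pdia3* and *Creld2* followed, with 0.23 ± 0.12 (SE, adjusted p = 0.28) and 0.17 ± 0.17 (SE, adjusted p = 0.586). *Pdia3* scored 5238, 5667, 6272 and 5720 (No Dox), 5705 (1wk Dox), and 5646, 6022, 7222, 8466 and 6522 (1wk WD), and *Creld2* scored 259, 375, 429 and 355 (No Dox), 460 (1wk Dox), and 390, 446, 385, 380 and 367 (1wk WD). *Derl3* had the largest negative one, -0.99 ± 0.73 (SE, adjusted p = 0.444), and scored 19, 127, 12 and 31 (No Dox), 11 (1wk Dox), and 27, 20, 7, 6 and 33 (1wk WD), so that it rested on the acinar-high replicate 2. Without that sample it was -0.32 ± 0.70 (SE, adjusted p = 0.844), 0 genes were called, and 0.977% of all genes were. *Trib3* and *Hyou1* were next, with -0.45 ± 0.33 (SE, adjusted p = 0.443) and -0.38 ± 0.16 (SE, adjusted p = 0.196). *Trib3* scored 209, 185, 232 and 140 (No Dox), 142 (1wk Dox), and 135, 104, 260, 76 and 178 (1wk WD), and *Hyou1* scored 1178, 1176, 1274 and 1065 (No Dox), 1417 (1wk Dox), and 977, 920, 728, 720 and 1240 (1wk WD).

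*Ddit3* in ECs scored 261, 257, 299 and 298 (No Dox), 228 (1wk Dox), and 378, 374, 190, 208 and 485 (1wk WD). The 1wk WD samples ran on both sides of No Dox, with 0.14 ± 0.27 (SE, adjusted p = 0.789). *Atf4* scored 2537, 3273, 3546 and 2934 (No Dox), 3566 (1wk Dox), and 2876, 3449, 4093, 2414 and 3440 (1wk WD), with 0.07 ± 0.15 (SE, adjusted p = 0.813). *Ero1l* scored 1820, 1860, 2089 and 2084 (No Dox), 1612 (1wk Dox), and 1577, 1883, 2087, 1763 and 1895 (1wk WD), and *Ero1lb* scored 749, 1798, 638 and 574 (No Dox), 380 (1wk Dox), and 541, 574, 558, 996 and 639 (1wk WD). For *Ero1lb* the highest samples were the acinar-high No Dox replicate 2 and 1wk WD replicate 4.

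The single EC sample at 1wk Dox has no spread of its own, so it was compared with the No Dox mean and range without a test. Its column label belongs to a number series apart from that of all other EC samples. Time point and series cannot be told apart here. *Derl3*, at -1.42, and *Ero1lb*, at -1.14 on the log2 scale, were the 2 of the 33 genes past 2-fold, where 10.7% of all 14047 genes were. Without No Dox replicate 2, 0 of the 33 passed. The sample lay above the No Dox range for 10 genes and below it for 16 (78.8% outside, against 62.1% of all genes). *Syvn1* was highest against No Dox, at 0.53, and *Hspa5* was -0.47 and *Ddit3* -0.29.

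The differences over time were then compared between cell types, with all 8 groups of 2 or more samples in one fit. Of the 33 genes, 0 were called by limma in any of the 4 contrasts. At 1wk Dox, β cells against MΦs, 0.0354% of all 16951 genes were called, and 5 of the 33 were under an unadjusted p of 0.05, against 8.12% of all genes. At 1wk WD the background was 0.383% for β cells against ECs, 0.0413% for β cells against MΦs, and 0.265% for ECs against MΦs, with 2, 5, and 2 of the 33 under an unadjusted p of 0.05, against 15.1, 11.8, and 12% of all genes. β cells had the lower change than MΦs for 25 of the 33 at 1wk Dox (median -0.27, against 0.02 over all genes) and for 26 at 1wk WD (median -0.29, against 0.11). These contrasts of β cells and MΦs share the No Dox samples of both cell types, so they are not independent.

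*Sdf2l1*, which rose in MΦs, had a β cell minus MΦ contrast of -1.67 ± 0.66 (SE, adjusted p = 0.482) at 1wk Dox. Its β cell scores at 1wk Dox, 754, 2178, 1339, 835 and 1125, lay within the No Dox range. *Derl3* and *Herpud1* were the other 2 most negative, with -1.77 ± 1.57 (SE, adjusted p = 0.806) and -1.36 ± 0.43 (SE, adjusted p = 0.294). For *Herpud1* the MΦ samples at 1wk Dox, with 3905 and 4174, lay within their No Dox range. *Asns*, *Trib3*, and *Eif2ak3* were the most positive, with 2.01 ± 1.18, 1.03 ± 1.19, and 0.83 ± 0.28 (SE). *Trib3* scored 17 and 28 in MΦs at 1wk Dox, within the wide No Dox range, and *Eif2ak3* scored 3323, 4956, 5308, 3343 and 5273 in β cells, on both sides of No Dox. *Asns* was -0.47 ± 0.74 (SE, adjusted p = 0.747) without the acinar-high samples, which hold its 2 highest MΦ scores. *Trib3* was then -0.30 and *Eif2ak3* 0.54.

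At 1wk WD *Dnajb9* was most negative against both other cell types, with -1.17 ± 0.54 (SE, adjusted p = 0.302) against ECs and -1.21 ± 0.55 (SE, adjusted p = 0.39) against MΦs. *Creld2* was -1.05 ± 0.50 (SE, adjusted p = 0.327) against ECs and -1.06 ± 0.52 (SE, adjusted p = 0.422) against MΦs. Its β cell scores at 1wk WD were 406, 1256 and 1620, which overlapped No Dox. *Herpud1* was -1.11 ± 0.41 (SE, adjusted p = 0.281) against MΦs, whose 1wk WD scores of 3762, 4407, 3083 and 3498 lay within the No Dox range. *Asns* was the third most negative against ECs, with -0.81 ± 1.10 (SE, adjusted p = 0.781), but the most positive against MΦs, with 2.01 ± 1.12 (SE, adjusted p = 0.486). The latter was -0.47 ± 0.72 (SE, adjusted p = 0.721) without the acinar-high samples. ECs scored 1077, 989, 1002, 743 and 772 for *Asns* at 1wk WD and overlapped No Dox.

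*Trib3* was the most positive against ECs, with 1.28 ± 1.10 (SE, adjusted p = 0.623), and next to *Asns* against MΦs, with 0.73 ± 1.13 (SE, adjusted p = 0.826). It scored 70, 23, 13 and 27 in MΦs at 1wk WD, within the No Dox range. Without the acinar-high samples its contrasts were 0.65 against ECs and -0.60 against MΦs. *Hyou1* and *Ppp1r15a* followed against ECs, with 0.47 ± 0.60 (SE, adjusted p = 0.763) and 0.44 ± 0.40 (SE, adjusted p = 0.649), and *Eif2ak3* against MΦs, with 0.23 ± 0.26 (SE, adjusted p = 0.749). *Eif2ak3* scored 3290, 3667 and 3963 in β cells at 1wk WD, and all but the lowest of these lay within the No Dox range. *Hspa5* was -0.97 ± 0.36 (SE, adjusted p = 0.285) against MΦs and -0.30 ± 0.35 (SE, adjusted p = 0.737) against ECs.

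Between ECs and MΦs at 1wk WD, *Asns* had by far the largest value, 2.81 ± 1.05 (SE, adjusted p = 0.266), and it was 0.68 ± 0.65 (SE, adjusted p = 0.667) without the acinar-high samples. *Sel1l* and *Eif2ak3* were the next most positive, with 0.31 ± 0.53 (SE, adjusted p = 0.9) and 0.30 ± 0.25 (SE, adjusted p = 0.704). In ECs at 1wk WD *Sel1l* scored 4838, 5311, 5015, 4907 and 4802 and *Eif2ak3* scored 2026, 1756, 1370, 2256 and 1806, and in MΦs *Sel1l* scored 4459, 5434, 4715 and 5045. Each of these groups overlapped No Dox. *Calr* was most negative, with -0.85 ± 0.36 (SE, adjusted p = 0.337), followed by *Hspa5*, with -0.67 ± 0.34 (SE, adjusted p = 0.437), and *Ppp1r15a*, with -0.63 ± 0.39 (SE, adjusted p = 0.547). *Calr* scored 2854, 3265, 2450, 1798 and 2869 in ECs at 1wk WD, within or below their No Dox range, while its MΦ samples all lay above theirs. *Ppp1r15a* scored 1653, 2240, 1325, 1002 and 2107 in ECs and 5536, 10059, 7079 and 5162 in MΦs at 1wk WD, and both overlapped No Dox.

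Without the acinar-high samples, β cells at No Dox are replicates 1 and 2 alone, with β cell marker shares of 22.4 and 16.3%. In β cells at 1wk Dox this share was 2.19 to 10.2%, and at 1wk WD 2.30, 6.57, and 28.0%. Its part in the results was not tested. Then 3 genes were called in the 1wk Dox contrast of β cells and MΦs. All 3 had the lower change since No Dox in β cells, where 2.06% of all genes were called lower and 6.2% higher. They were *Sdf2l1*, at -2.52 ± 0.70 (SE, adjusted p = 0.0264), *Creld2*, at -2.14 ± 0.62 (SE, adjusted p = 0.0341), and *Derl3*, at -4.25 ± 1.33 (SE, adjusted p = 0.048). *Creld2* scored 730, 1749, 1512, 763 and 1135 in β cells at 1wk Dox. At 1wk WD 3 were called against ECs (*Dnajb9*, *Hsp90b1*, and *Pdia3*) and 4 against MΦs (*Dnajb9*, *Creld2*, *Pdia3*, and *Derl2*), again all with the lower change in β cells. In β cells at 1wk WD *Hsp90b1* scored 22693, 34258 and 45295, *Pdia3* 6934, 10503 and 16459, and *Derl2* 898, 1317 and 2073. At the same time *Hsp90b1* scored 14905, 16600, 18805, 18166 and 16916 in ECs, and *Pdia3* scored 6645, 10844, 8374 and 10013 and *Derl2* 1021, 1014, 1370 and 1308 in MΦs. Of all genes, 2.74% were called lower and 11.3% higher against ECs, and 2.23% lower and 9.42% higher against MΦs. Against ECs, *Dnajb9* was -1.85 ± 0.53 (SE, adjusted p = 0.0197), and it was also called when only β cell No Dox replicate 4 was left out. Between ECs and MΦs 0 were called, where 0.549% of all genes were. The median of the β cell to EC contrast at 1wk WD, -0.16, was 0.17 without β cell 1wk WD replicate 1 and -0.57 without replicate 3.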

How the data were processed

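RNA was amplified with the Ovation system and sequenced as 50 bp paired-end reads, which the authors mapped to mm9 with TopHat 2.0, per the labels and the methods. The annotation used is not given in the sources used here. The deposited values are TMM-normalized scores that the authors obtained in Avadis NGS. They are whole numbers from 1, so they are not counts, depth is unknown, and no counting interval was computed. The table also holds 6 columns of sample values that no label here matches, and these were not used. The cell label "Bets" was read as β cells.

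Scores of 32 samples were analysed as log2(score + 1) with limma 3.58.1 (R 4.3.3), with a trend of the spread on the mean. Each cell type was fitted over its time points, the No Dox samples of all cell types together, and the contrasts between cell types over all groups of 2 or more samples. A gene was fitted if its mean reached a score of 20 in 1 or more groups. Fold changes are on this log2 scale, which understates changes of low genes. A gene was called at an adjusted p under 0.05 (Benjamini-Hochberg over all genes fitted) and a fold change of at least 2. These limits follow the authors, whose z-score test was not repeated. The 33 genes and all other lists were chosen with earlier results of these data known. Values in every sample are given for genes called in a comparison, the 3 most positive and 3 most negative of each, and *Hspa5*, *Ddit3*, *Xbp1*, *Atf4*, *Ero1l*, *Ero1lb*, and *Derl3*. Among other genes, *Ins1*, *Ins2*, *Ppib*, *P4hb*, *Sec61b*, *Atf3*, and the genes called over time in the pathway lists were named. Scores are not per length, so levels were not compared between genes. Promoter windows are from RefSeq (GRCm38.p6), and no coordinates were moved between builds. The fits were tested on simulated data.

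Alternatives were another pseudocount (20), no filter, no trend, any fold change, median-of-ratios scaling, only the groups compared, weights per cell type (No Dox and cell type contrasts), the single EC sample added (ECs), the replicate number as a block, each sample left out, and the acinar-high samples left out. Replicate numbers are those of the sample titles throughout. The table's own column labels number the 1wk Dox samples and 1 of the β cell samples at 1wk WD otherwise, and pairing by those numbers was not tested. Most samples with the same number in their titles did not deviate together. Of 32 such pairs 6 had a correlation over 0.1 (range -0.47 to 0.37), so the numbers were not taken to pair samples. The highest, 0.37, was that of replicate 2 of ECs and MΦs at No Dox, both acinar-high. Whether these came from the same islets is not given in the sources used here.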

Additional observations from a re-analysis of the deposited data

Results flagged for a closer look

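Among 198 sets of 4 or 5 samples of a gene in a group, 7 held a sample far from the others by Dixon's criterion, where chance flags about 1 in 20. In MΦs at No Dox, *Ero1lb* scored 9693 in replicate 2, an acinar-high sample, and 3370 to 3842 in the others. In ECs at 1wk WD, replicate 4 had the lowest *Manf* score, 418 against 546 to 590, and the highest *Ero1lb* score, 996 against 541 to 639. In MΦs at 1wk WD, replicate 3 was lowest for *Xbp1*, 3910 against 4544 to 4647. Replicate 1 of the same group was lowest for *Wfs1*, 272 against 396 to 408, and for *Creld2*, 372 against 630 to 644, and highest for *Syvn1*, 2395 against 1532 to 1573. The results that use these samples were recomputed with each of them left out.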

How the results depend on the processing

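Under the alternatives, 334 counts of UPR genes stayed within 1.5 times the value reported and 21 did not. The MΦ count at 1wk Dox, 1, was 0 without the filter on low scores, without the trend, with the replicate block, and with only the 2 groups compared, 5 at any fold change, 0 to 2 with one replicate left out, and 4 without the acinar-high samples. That last choice, made after seeing the data, also moved the β cell to MΦ count at No Dox from 18 to 29. It moved the counts of the contrasts between cell types from 0 to 3 (1wk Dox, β cells and MΦs), 3 (1wk WD, β cells and ECs), and 4 (1wk WD, β cells and MΦs). The 1wk WD contrast of β cells and ECs gave 0 to 1 with one replicate left out. For the single EC sample the count of 2 was 1 with a pseudocount of 20, 0 to 2 with one replicate left out, and 0 without the acinar-high sample. The cause was not tested. The replicate block moved no other count by more than 1.5 times, and gave 22 in place of 23 for β cells and ECs at No Dox. Of the medians, 331 stayed within the spread and 10 moved, and the one of these that changed sign was 0.17 in place of -0.16 for the 1wk WD contrast of β cells and ECs without β cell 1wk WD replicate 1. For single genes, 11326 values kept their direction and side of the threshold, 67 were called only under the alternative, 58 lost their call, 0 called values reversed, and 443 values called in neither changed sign. Depth is unknown, so what it limits cannot be stated.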
